A study of Mus musculus with 2 samples.

Results

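The genes of the lipid droplet surface and of lipolysis, the stepwise release of fatty acids from stored fat, were described in interscapular brown adipose tissue (iBAT) of mice with and without uncoupling protein 1 (UCP1). The members were taken by gene symbol and comprised 10 of the 27179 genes listed: the perilipins Plin1, Plin2, Plin4 and Plin5, the droplet fusion proteins Cidea and Cidec, the lipases Pnpla2 and Lipe, and the lipase regulators Abhd5 and G0s2. Of these, 9 were measured well above the counting floor in both libraries, while G0s2 was not. RNA came from untreated 20-day-old C57BL/6N animals, either wild-type (label "Bl6N, wild-type") or knockout for Ucp1 (label "Bl6N, Ucp1 KO", termed Ucp1-KO here). Each genotype was 1 library made from the iBAT of 3 pooled animals, so that every difference below is one between 2 pools, with no replicate, no p-value and no SD. How the Ucp1 allele was made is not given in the sources used here.

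The wild-type library held 52950913 counts and the Ucp1-KO library 53216727. Ucp1 itself had 366473 counts in the wild-type pool and 37853 in the Ucp1-KO pool, or 12.7% of the wild-type level after normalisation. All 10 adipocyte and all 9 brown adipocyte markers had counts in both libraries. Of the adipocyte markers, 4 had a log2 ratio above 0 and 6 below, with 2 at least 2-fold lower (Retn at -1.90, Lep at -1.26) and 0 higher. Of the brown adipocyte markers, 7 were above 0 and 2 below. At least 2-fold higher were 4 of these (Elovl3 at 2.52, Dio2 at 2.28, Ppargc1a at 1.89, Prdm16 at 1.39), and 1, Ucp1, was at least 2-fold lower. The animals are described as male, yet 4 Y-linked genes were at 0 in the wild-type library and had 5305 counts in sum in the Ucp1-KO library, so the wild-type library goes against that description, and genotype and sex cannot be told apart. Skeletal muscle markers took 0.503% of wild-type counts and 0.0527% of Ucp1-KO counts, with 12 of 12 at least 2-fold lower and none at 0. Endothelial markers made up 0.214% and 0.104%, with 8 of 8 at a log2 ratio below 0. Macrophage markers took 0.0153% and 0.0155%, with 2 of 10 at least 2-fold higher (Itgam at a log2 ratio of 2.04 and Cd68 at 1.09), none 2-fold lower and 3 below 0. The part of these differences in the results below was not tested. In such bulk samples, fewer cells of a type and less RNA per cell cannot be told apart.

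Adipocytes store triglyceride in lipid droplets whose surface carries proteins that decide how readily lipases reach the fat. Perilipin 1 coats the droplets of mature adipocytes and, at rest, holds the co-activator ABHD5 (also known as CGI-58) away from adipose triglyceride lipase (ATGL, encoded by Pnpla2). Noradrenaline acting through beta-adrenergic receptors and protein kinase A releases ABHD5, ATGL then removes the first fatty acid, hormone-sensitive lipase (encoded by Lipe) the next, and monoglyceride lipase the last. In brown fat the released fatty acids both fuel mitochondria and activate UCP1, and the many small droplets of these cells are characteristic of the tissue.

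Of the 9 members above the floor, 6 had a higher and 3 a lower normalised level in the Ucp1-KO library, against 4 and 5 with total-count scaling and 9 and 0 with adipocyte-marker scaling. The difference is given as the log2 ratio of normalised counts, Ucp1-KO over wild-type, with a 95% interval that covers counting error only. Plin2 (0.76), Pnpla2 (0.57), Plin1 (0.56) and Cidea (0.49) lay furthest above 0, and Plin5 (-0.23) and Plin4 (-0.22) furthest below. The 9 members above the floor had a median log2 ratio of 0.25 and a range of -0.23 to 0.76. A 2-fold difference was the size rule, and 0 of 9 members exceeded it upwards and 0 of 9 downwards. Over the 15212 genes whose mean normalised count reached 10, the share at least 2-fold higher was 7.42% and the share at least 2-fold lower 9.55%. Over the 6395 abundant genes, those whose mean reached 1000, the range that holds all 9, these shares were 2.63% and 2.86%. The absence of members past 2-fold is therefore near the background for genes whose mean reached 1000. The 9 members lay well above that limit, with Plin5 lowest at 6691 and 5707 normalised counts. The background was not matched more closely for abundance. Of the same 6395 abundant genes, 56.0% had a log2 ratio above 0, so 6 of 9 members above 0 is also near the background.

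The direction of the smaller differences depended on how the libraries were scaled. Scaling by total counts shifted the median of all genes by -0.31, and scaling by the median ratio of 10 adipocyte markers shifted it by 0.37. Those 10 markers had log2 ratios from -1.90 (Retn) to 0.84 (Adipoq), so their median stands for genes that differed in direction. Plin1, Plin2, Cidea and Pnpla2 stayed above 0 under all 6 scalings computed, but their size depended on the scaling. In that order, they were at 0.25, 0.45, 0.19 and 0.27 with total counts. With adipocyte-marker scaling they were at 0.93, 1.13, 0.86 and 0.94. Lipe and Abhd5 were above 0 except with total counts, which gave -0.06 and -0.19. Plin4, Plin5 and Cidec were below 0 except with adipocyte-marker scaling, which gave 0.15, 0.14 and 0.32. Among the 6395 abundant genes the median log2 ratio was 0.06, with quartiles of -0.20 and 0.31, so that Abhd5, Lipe and Cidec lay within the middle of that range and the other 6 members outside it.

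**Figure D1:**
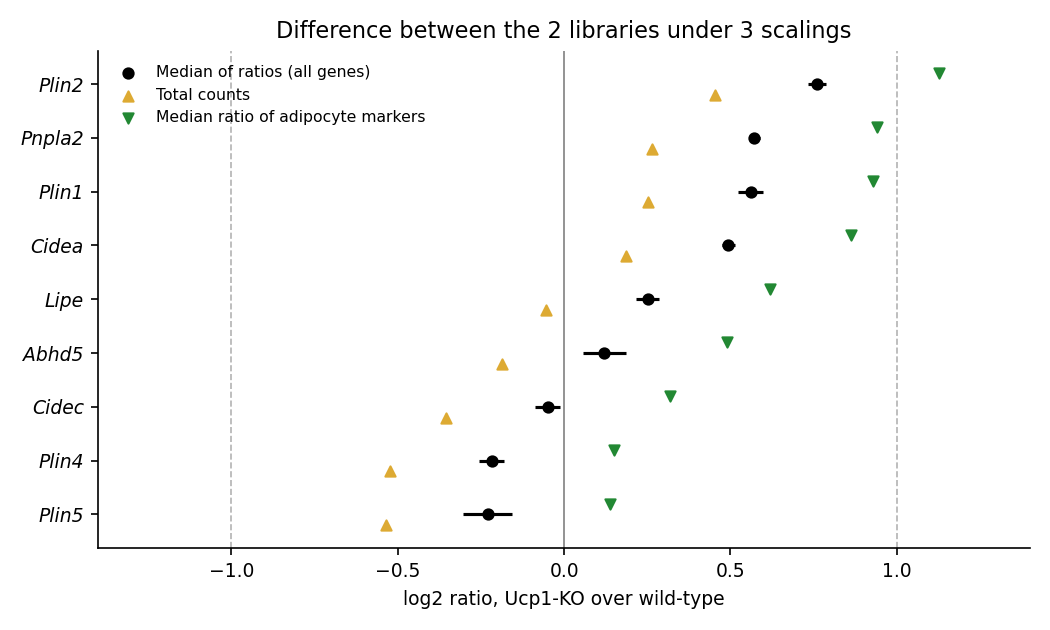
Log2 ratio of Ucp1-KO over wild-type (horizontal axis) for the 9 members above the counting floor, with 1 library per genotype. Black points are median-of-ratios scaling with 95% counting intervals, triangles are 2 other scalings and dashed lines mark 2-fold. The order of the members is the same in each scaling, Lipe and Abhd5 lie below 0 with total counts, and Plin4, Plin5 and Cidec lie above 0 with adipocyte-marker scaling.

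**Figure D2:**
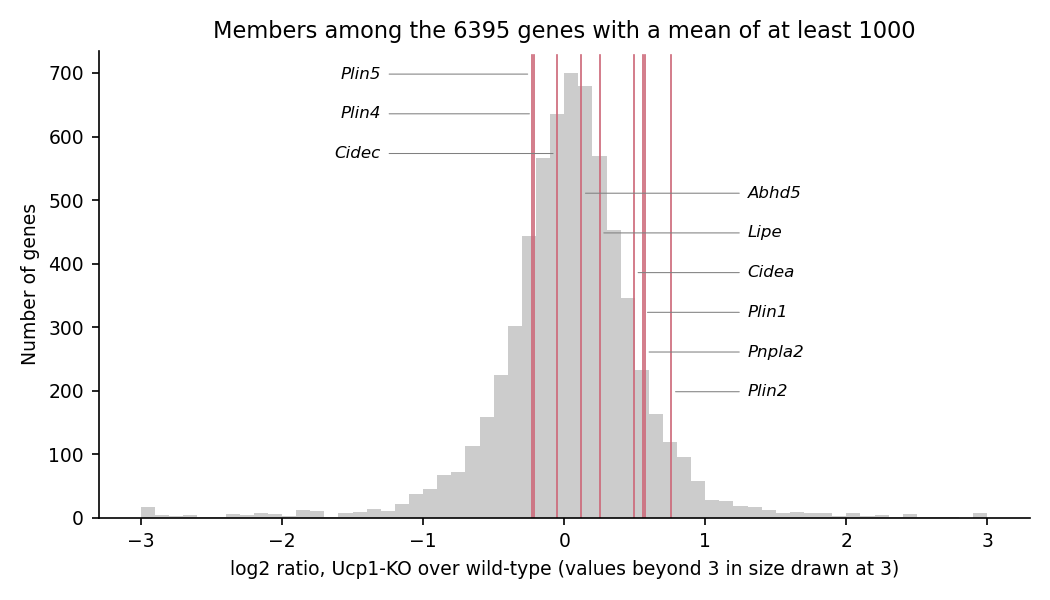
Number of genes (vertical axis) by log2 ratio of Ucp1-KO over wild-type (horizontal axis) for the 6395 genes whose mean normalised count reached 1000, in bins of equal width. Red lines mark the 9 members with median-of-ratios scaling, from Plin5 at -0.23 to Plin2 at 0.76, all inside the 2-fold limits at -1 and 1.

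Among the 4 member perilipins, Plin2, which coats droplets in most cell types and is known to be stabilised by the lipid it binds, differed most. Its counts were 37514 in wild-type, with a 95% Poisson interval of 36979 to 38055, and 51604 in Ucp1-KO, with one of 50976 to 52238, or 33814 and 57251 after normalisation. The log2 ratio was 0.76 (0.73 to 0.79), and 5.7% of abundant genes had a ratio at least as high. Plin2 lies on chromosome 4 of GRCm39 from 86565912 to 86588459 on the minus strand. A stretch of the same chromosome (86544952 to 86545570) matched 30.4% of its 2050-base canonical transcript at 96.5% identity, so its counts are uncertain to the extent that reads were placed there.

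Plin1, the main perilipin of adipocytes and the gatekeeper of stimulated lipolysis, had 21331 counts in the wild-type pool and 25562 in the Ucp1-KO pool. These were 19227 and 28359 normalised counts, a log2 ratio of 0.56 (0.52 to 0.60). The gene spans 79369966 to 79382718 of chromosome 7, minus strand, and its canonical transcript has 9 exons. With median-of-ratios scaling, Plin1 was thus at 147.5% of the wild-type level, against 169.3% for Plin2.

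Plin4 and Plin5 went the other way, except with adipocyte-marker scaling. Plin5, which tethers droplets to mitochondria in oxidative tissues, had 7423 counts in the wild-type pool and 5144 in the Ucp1-KO pool, or 6691 and 5707 after normalisation. Its log2 ratio of -0.23 (-0.30 to -0.16) was the lowest of the members, and 22.8% of abundant genes were as low or lower. Plin4, which binds nascent droplets of adipocytes through a long repeated helix, had 26802 and 18730 counts, or 24158 and 20780 after normalisation, a log2 ratio of -0.22 (-0.26 to -0.18). The pair are neighbours on chromosome 17, with Plin4 from 56406617 to 56416931 and Plin5 from 56418446 to 56424610, both on the minus strand. Of the exonic bases of Plin4, 39.1% overlap Hdgfl2 on the opposite strand, a gene with 2547 and 2048 counts, and the strand setting of the counting is not given in the sources used here. Plin4 and Plin5 are also known from muscle, whose markers were lower in the same library; the part of muscle in both ratios was not tested.

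Comparing members within a library removes the scaling. The log2 difference between Plin5 and Plin1 was -0.79 (-0.87 to -0.71, 95% exact counting interval), as Plin5 was 0.464 of Plin1 per base of transcript in wild-type and 0.268 in Ucp1-KO. Plin4 against Plin1 gave -0.78 (-0.83 to -0.72), from 0.506 to 0.295 of Plin1. Plin2 against Plin1 gave 0.20 (0.15 to 0.25), from 2.57 to 2.95. The gap between Plin1 and Plin2 on one side and Plin4 and Plin5 on the other thus does not depend on the scaling.

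Plin3, the remaining perilipin and no member, completed the family at 8131 and 3492 counts, a log2 ratio of -0.92. Counted per length of the canonical transcript, Plin2 made up 53.3% of perilipin transcripts in wild-type and 63.9% in Ucp1-KO, and Plin1 20.7% and 21.6%. The shares of the others were lower in Ucp1-KO, from 10.5% to 6.38% for Plin4, from 9.60% to 5.81% for Plin5 and from 5.99% to 2.25% for Plin3. With the length of all annotated exons, a choice made after the data were seen, Plin2 was at 32.3% and 44.1%, Plin1 at 22.2% and 26.4% and Plin4 at 22.2% and 15.4%, so the level of each share depended on the length while the direction of each did not.

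**Figure D3:**
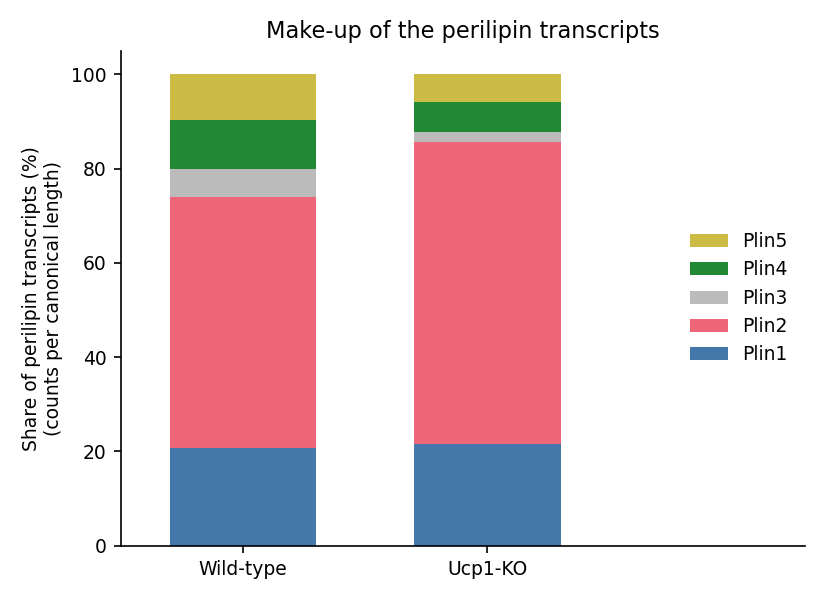
Share of perilipin transcripts in percent (vertical axis), counted per length of the canonical transcript, in the wild-type and the Ucp1-KO library, 1 library each. Plin2 takes 53.3% in wild-type and 63.9% in Ucp1-KO, while Plin3, Plin4 and Plin5 take smaller shares in Ucp1-KO.

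Perilipin and lipase genes are known targets of PPAR-gamma, a nuclear receptor whose recognition element repeats the hexamer AGGTCA with 1 base between the copies. The hexamer was therefore searched on either strand in the 250 bases before the RefSeq start sites (table of GRCm38.p6). It was found in 3 of the 12 promoters listed for 9 members, those of Plin2, Plin5 and Abhd5, and in 14.0% of all 32851 promoters. The direct repeat was in 0 of the 12, and in 0.0335% of all promoters. No entry was matched for Cidea. The 3 promoters are shown because they hold the hexamer, with it or its reverse complement (TGACCT) in capitals. They belong to the highest member, to the lowest and to the lipase co-activator, and the other promoter listed for Plin5 did not hold it. The part upstream of every annotated transcript was located by exact match in GRCm39: Plin2 at chr4:86588460-86588546 on the minus strand, Plin5 at chr17:56424611-56424798 on the minus strand and Abhd5 at chr9:122180431-122180620 on the plus strand, each written 5′ to 3′.
Plin2: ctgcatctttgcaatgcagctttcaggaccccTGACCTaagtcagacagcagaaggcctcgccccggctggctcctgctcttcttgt
Plin5: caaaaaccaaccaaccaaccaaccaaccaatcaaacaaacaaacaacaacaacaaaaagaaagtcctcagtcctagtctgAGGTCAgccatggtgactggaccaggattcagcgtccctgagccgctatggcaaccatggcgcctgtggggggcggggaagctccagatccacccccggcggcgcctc
Abhd5: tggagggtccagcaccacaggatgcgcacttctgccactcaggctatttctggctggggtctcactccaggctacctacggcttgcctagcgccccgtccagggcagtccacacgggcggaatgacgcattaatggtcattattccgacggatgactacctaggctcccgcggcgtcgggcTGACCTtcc
The hexamer begins 218 bases before the start site in Plin2, 170 in Plin5 and 69 in Abhd5. It stands in the promoters of a member that was higher and of one that was lower (Plin5, except with adipocyte-marker scaling), and these matches are a description of the letters.

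The lipases were higher, the first of the cascade by more than the second. Pnpla2, encoding the rate-limiting triglyceride lipase, had 101136 counts in the wild-type pool and 122158 in the Ucp1-KO pool, or 91160 and 135527 normalised counts. The log2 ratio was 0.57 (0.56 to 0.59), which 10.4% of abundant genes reached. Lipe, encoding the diglyceride lipase, had 26324 and 25452 counts, or 23727 and 28237 after normalisation, a log2 ratio of 0.25 (0.22 to 0.29) that turned to -0.06 with total counts. Lipe against Pnpla2 gave -0.32 (-0.36 to -0.28), from 0.137 to 0.110 of Pnpla2 per base of transcript. Both genes are on chromosome 7, Pnpla2 from 141034404 to 141040656 on the plus strand and Lipe from 25078880 to 25098135 on the minus strand. Of the exonic bases of Lipe, 22.3% overlap a long non-coding RNA on the opposite strand, which had 64 and 34 counts, and Pnpla2 also overlaps such an RNA, not analysed here. Together the 2 lipases took 0.241% of wild-type counts and 0.277% of Ucp1-KO counts.

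Of the regulators of ATGL, Abhd5 could be compared with it and G0s2 could not. Abhd5, the co-activator, had 8093 and 7151 counts, or 7295 and 7934 after normalisation, a log2 ratio of 0.12 (0.06 to 0.19) that turned to -0.19 with total counts. Against Pnpla2 it was lower by a log2 difference of -0.45 (-0.52 to -0.38), so that the co-activator was 0.051 of its lipase per base of transcript in wild-type and 0.038 in Ucp1-KO. Abhd5 is on chromosome 9 (122180621 to 122222936, plus strand). Of its exonic bases, 15.5% overlap a long non-coding RNA on the opposite strand, which had 18 and 14 counts.

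G0s2, the inhibitor of ATGL and a gene known for its expression in adipose tissue, was listed at 3 counts for wild-type (interval 0.2 to 12.8) and at 4 for Ucp1-KO (interval 0.5 to 14.4). Both values were under the floor of 6 counts, so no ratio and no comparison with Pnpla2 is given. In the reference G0s2 (chromosome 1, 192949563 to 192956177, minus strand) has no near-identical copy and shares 2.6% of its exonic bases with Lamb3 on the opposite strand. Sdhd, a subunit gene of respiratory complex II that was chosen after its value was seen, was listed at 0 in both libraries, so a listed value near 0 is not read as absence of the transcript. The cause of the low G0s2 count was not tested.

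Of the droplet fusion proteins, Cidea was higher and Cidec was near 0. Cidea, which promotes lipid transfer between droplets and marks brown adipocytes, had 89838 counts in the wild-type pool and 102812 in the Ucp1-KO pool, or 80976 and 114063 after normalisation, a log2 ratio of 0.49 (0.48 to 0.51). Cidec, its relative that drives the growth of the large droplet of white adipocytes (also known as FSP27), had 26802 and 21042 counts, or 24158 and 23345 after normalisation. Its log2 ratio was -0.05 (-0.09 to -0.01), the nearest to 0 of all members, and 0.32 with adipocyte-marker scaling. Cidec against Cidea gave -0.54 (-0.59 to -0.50), from 0.132 to 0.091 of Cidea per base of transcript. Cidea lies on chromosome 18 (67476317 to 67501224, plus strand) and Cidec on chromosome 6 (113400691 to 113412721, minus strand). Of the exonic bases of Cidea, 16.9% overlap a long non-coding RNA on the opposite strand, which had 754 and 438 counts. For Cidec the overlap with such an RNA was 9.1%. Cidec and Plin4 had the same count of 26802 in wild-type but not in Ucp1-KO.

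Ordered by normalised counts per kilobase of canonical transcript, Cidea (63962) and Pnpla2 (44231) stood highest in wild-type. Plin2 (16494), Cidec (8444), Plin1 (6409) and Lipe (6054) came next, and Plin4 (3242), Plin5 (2975) and Abhd5 (2273) were lowest. In Ucp1-KO, Plin1 (9453) stood above Cidec (8160), and the other places were the same. Among the 13824 examined genes with a length, Cidea moved from rank 13 to rank 8 and Pnpla2 from 32 to 15. Ranks also move with the levels of other genes, and Ucp1 and all 12 muscle markers were lower in Ucp1-KO. With the length of all annotated exons, Cidea and Pnpla2 still led and Abhd5 was last, while Cidec stood above Plin2, and Plin4 (3025) and Plin1 (3025) in wild-type were level. The 10 members took 0.652% of all wild-type and 0.713% of all Ucp1-KO counts, or 0.840% and 1.13% of the counts without mitochondrially encoded genes.

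**Figure D4:**
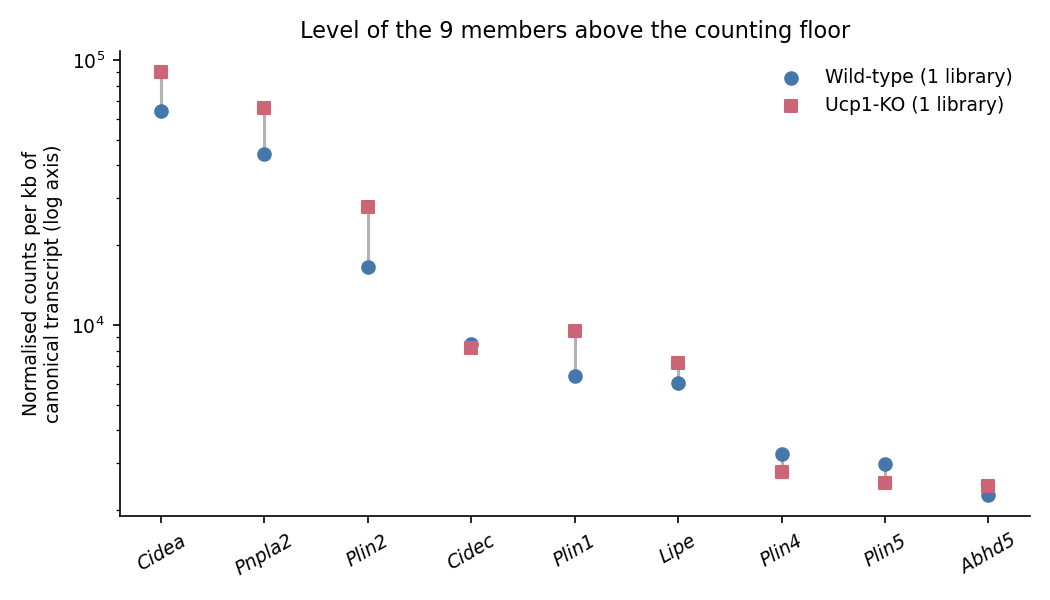
Normalised counts per kilobase of canonical transcript (vertical axis, log scale) for the 9 members above the floor, wild-type as circles and Ucp1-KO as squares, 1 library each. Cidea, Pnpla2 and Plin2 are highest in both libraries, and Cidec, Plin4 and Plin5 are the 3 whose square lies below the circle with this scaling, but not with adipocyte-marker scaling.

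The other genes of the pathway, 80 in 5 lists, were examined beside the members. In 77 of them the mean normalised count reached 10, and of these 7 passed 2-fold upwards and 9 downwards, a share of 20.8% against 17.0% of all genes examined and 5.5% of the 6395 abundant genes. Single ratios between -0.37 and 0.31 change sign under total-count or adipocyte-marker scaling and are given as values only.

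Other droplet proteins (16 examined, median 0.08) included 1 gene past 2-fold upwards and 1 downwards, both at low counts. Cideb, the liver relative of Cidea, had 14 and 40 counts. Fitm1, known from skeletal muscle, where it helps to partition fat into droplets, had 145 and 2 counts, and the part of the lower muscle markers in this was not tested. Both were chosen after their values were seen. At a mean of at least 100 the furthest were Plin3 (-0.92), Mlx (-0.72), a transcription factor that binds droplets, and Ldaf1 (0.68), which works with seipin where droplets form.

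The list of other lipases and fatty acid handling genes (14 examined, median 0.29) included 1 gene past 2-fold upwards and 2 downwards. It also held Faf2 (0.19) and Ubxn8 (-0.73), which encode UBX-domain proteins rather than enzymes or fatty acid binding proteins. Both count in its median. Fabp3, the heart-type fatty acid binding protein that brown fat also uses, had 18351 counts in the wild-type pool and 49096 in the Ucp1-KO pool, a log2 ratio of 1.72 (1.68 to 1.75). Pnpla3, a relative of ATGL known to compete for ABHD5, had 18173 and 4931 counts, a ratio of -1.58 (-1.65 to -1.52). Fabp5 had 2954 and 971 counts, a ratio of -1.31 (-1.46 to -1.16), or -0.94 with adipocyte-marker scaling.

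The list of genes that switch lipolysis on (13 examined, median 0.18) included 1 gene past 2-fold upwards and 1 downwards. It also held Acvr1c (0.31), which encodes a receptor known to restrain lipolysis. The medians of this list and the next depend on where Acvr1c is placed. Adrb3, encoding the beta3-adrenergic receptor typical of adipocytes, had 6968 counts in the wild-type pool and 2681 in the Ucp1-KO pool, a log2 ratio of -1.08 (-1.17 to -0.99), or -0.71 with adipocyte-marker scaling. Adcy3, an adenylyl cyclase that makes the second messenger cyclic AMP, had 2555 and 6132 counts, a ratio of 1.56 (1.47 to 1.66). Npr1, the receptor through which natriuretic peptides stimulate lipolysis, had 10686 and 4631 counts, a ratio of -0.91 (-0.98 to -0.84).

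Among genes that hold lipolysis back (16 examined, median -0.03), 2 passed 2-fold upwards and 2 downwards. Npr3, the clearance receptor that removes lipolytic natriuretic peptides, had 4652 and 21124 counts, with a log2 ratio of 2.48 (2.42 to 2.55). Ptger3, a prostaglandin E2 receptor that lowers cyclic AMP, had 622 and 158 counts, a ratio of -1.67 (-2.05 to -1.32). Pde4d, a cyclic AMP phosphodiesterase, was at -0.98 (-1.05 to -0.91). The other calls were at low counts and were chosen after their values were seen, with 4 and 35 counts for the alpha2A-adrenergic receptor gene Adra2a and 135 and 42 for the neuropeptide Y receptor gene Npy1r.

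Regulators of transcription (18 examined, median -0.08) included 2 genes past 2-fold upwards and 3 downwards. Ppargc1a, a coactivator of mitochondrial and thermogenic genes, had 4105 and 12332 counts, with a log2 ratio of 1.89 (1.81 to 1.96). Egr1, an immediate early factor known to repress Pnpla2, had 666 and 1890 counts, a ratio of 1.80 (1.62 to 1.99). Irf4, a factor that fasting induces in fat and that promotes lipase genes, had 1735 and 356 counts, a ratio of -1.98 (-2.23 to -1.75). Klf15, a fasting-responsive factor, was at -1.87 (-2.02 to -1.72), and Srebf1, a factor of fatty acid synthesis, at -1.14 (-1.23 to -1.05), or -0.77 with adipocyte-marker scaling.

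**Figure D5:**
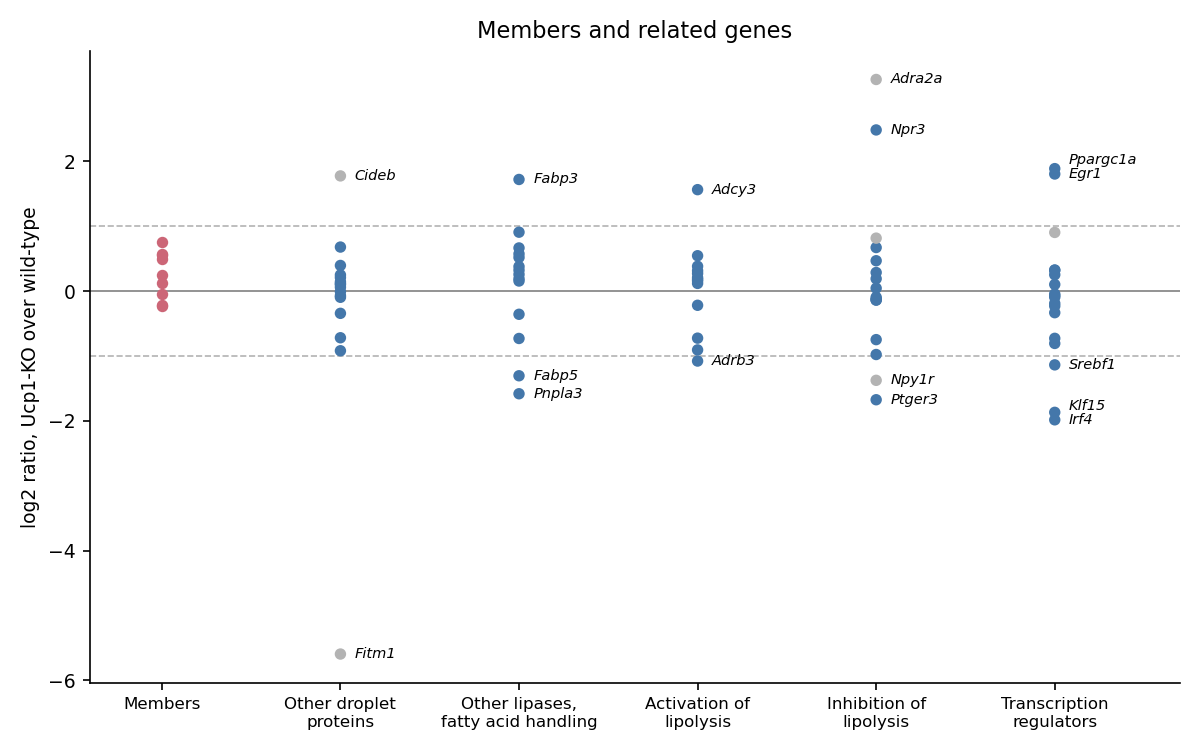
Log2 ratio of Ucp1-KO over wild-type (vertical axis) for the 9 members and the 5 lists of related genes whose mean normalised count reached 10. Grey points have a mean under 100, dashed lines mark 2-fold, and only genes past 2-fold are named. The members span -0.23 to 0.76, inside the dashed lines, while each of the 5 lists has genes beyond them on either side.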

How the data were processed

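Per the labels, iBAT RNA was enriched for poly-adenylated RNA and made into directional libraries. The deposited values are raw whole-number counts per gene, made by the authors with featureCounts. The submitters' processing notes name Trim Galore, HISAT2 and build mm39. The annotation and the settings for strand and multiple matches are not given in the sources used here.

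Libraries were normalised in R 4.3.3 with the median-of-ratios method of DESeq2 1.42.0, which gave factors of 1.11 (wild-type) and 0.901 (Ucp1-KO). Log2 ratios used a pseudocount of 0.5. Low counts were mostly even (70.7% and 73.4% of counts from 1 to 10), as when both mates are counted, so 95% exact intervals (Poisson, conditional binomial and conditional odds ratio, scipy 1.17.1) were computed on counts divided by 2, with a floor of 3 pairs. Intervals cover counting error only. The script for intervals was tested on simulated data. Alternatives were TMM factors (edgeR 4.0.16), totals with and without mitochondrial genes, adipocyte-marker scaling, scaling without muscle genes, other pseudocounts, size rules and filters.

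Named were all members, up to 3 genes per list with the largest ratio at a mean of at least 100, and every listed gene past 2-fold at that mean. The members and lists were chosen with earlier results of these data known. The result of 1 listed gene is not reported here, and it was left out of its list. Tmem159 was listed under its newer symbol Ldaf1, matched by its gene identifier. Cidea is also in the brown adipocyte list, and Fabp4, Pparg and Cebpa are in the adipocyte and a related list. The other lists had medians of -0.37 (adipocyte), 0.49 (brown adipocyte), 0.12 (macrophage), -0.89 (endothelial), -2.78 (muscle) and -0.19 (fibroblast). Copies were sought with blastn 2.17.0 at 95% identity over at least 100 bases. Positions are from GRCm39 (GENCODE M39), joined by symbol.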

Additional observations from a re-analysis of the deposited data

How the results depend on the processing

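No paired analysis was possible because there was 1 library per genotype, and for that reason no library could be left out. Of the 9 members, the median log2 ratio of 0.25 became -0.056 with total counts, 0.62 with adipocyte-marker scaling and 0.44 as summed counts, since these scalings shift all genes and a sum is set by Pnpla2 and Cidea. The number of members at least 2-fold higher became 1 (Plin2) with adipocyte-marker scaling and also 1 (Plin2) with a log2 ratio of 0.58 as the size rule. It remained 0 with TMM factors, total counts, totals without mitochondrial genes, scaling without muscle genes, a size rule of 1.5 and intervals wholly past 2-fold, and the number at least 2-fold lower was 0 in all of these. The 6 differences between members moved by less than their counting intervals with a pseudocount of 5.

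Over all genes, 1128 were at least 2-fold higher and 1453 lower. Total counts gave 732 and 2320, and adipocyte-marker scaling 2159 and 910. No filter gave 2187 and 2844, a minimum mean of 50 gave 617 and 811, a minimum mean of 1000 gave 168 and 183, a size rule of 0.58 gave 2380 and 2749, one of 1.5 gave 603 and 796, and intervals wholly past 2-fold gave 414 and 566. Of 159 alternative values, 56 moved. Signs changed for values that had not passed 2-fold: the member median, Lipe and Abhd5 with total counts, and Plin4, Plin5 and Cidec with adipocyte-marker scaling. Total counts also turned the list medians of droplet proteins (-0.23), lipases (-0.02) and activation (-0.13), adipocyte-marker scaling those of inhibition (0.34) and regulators (0.29), and summed counts those of droplet proteins (-0.13) and inhibition (0.22). Counts under the floor or near it make the values of G0s2, Cideb, Adra2a and Fitm1 imprecise.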
